A study of Mus musculus with 12 samples.

Results

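The Hippo pathway was followed through 10 genes in RNA-seq libraries of IEC4.1 cells, a mouse cell line labelled as intestinal epithelium, in which the long noncoding RNA Nostrill had been targeted with siRNA. The genes were the scaffolds Wwc1 and Nf2, the adaptor Sav1, the kinases Lats1 and Lats2, the coactivators Yap1 and Wwtr1, their DNA-binding partner Tead1, and the target genes Amotl2 and Ankrd1. They make up 10 of the 15002 genes in the tables, and all 10 passed the filter on low counts that left 11900 genes for testing. The set was selected on the measured level of Wwc1, which was lower with the Nostrill siRNAs both without and with interferon-γ (IFN-γ). The levels of Wwc1 between the siRNA groups are therefore given as a description, with no test, and the question was whether the other members and the genes downstream of them moved as well.

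The Hippo pathway is a kinase cascade that limits tissue growth. Scaffold proteins at the cell cortex, among them the Wwc1 product (also called KIBRA) and the Nf2 product (merlin), bring the MST kinases, held by the adaptor SAV1, to the LATS kinases. Active LATS kinases phosphorylate the coactivators YAP and TAZ (the latter encoded by Wwtr1) and keep them out of the nucleus. Free YAP and TAZ bind TEAD factors on DNA and switch on genes such as Ankrd1, Amotl2, Ccn1 and Ccn2. In the intestinal epithelium the pathway is known for its part in regeneration of the crypts. It acts largely through phosphorylation, which mRNA levels do not show.

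The 12 libraries formed 4 groups of 3. The groups siR_Ctrl and siR_Ctrl + IFN-γ received a control siRNA, while siR_Nostrill and siR_Nostrill + IFN-γ received a pool of 3 siRNAs against Nostrill. All libraries carry a label of 24 h, and per the study's methods IFN-γ was given at 1 ng/ml for 4 h. The labels call the cells wild type, and the Nostrill groups a knockdown. All libraries come from this one line. The study describes the 3 of a group as biological replicates without saying how they were prepared, and the tests measure the spread between them. Nostrill itself was not analysed here, and the knockdown was not checked against the labels. In bulk RNA, fewer cells that express a gene and less of its RNA per cell cannot be told apart.

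The libraries held 17824306 to 19093204 reads counted on genes (median 18153496.5). The markers did not bear out the epithelial label. Levels are given as FPKM, which are scaled to transcript length and to the mapped total of each library. The keratin genes Krt8 and Krt18 reached at most 0.28 and 0.1 FPKM and the brush border gene Vil1 at most 0.07 in the 12 libraries, while Krt19 lay between 0.91 and 2.76. Mesenchymal markers were abundant, with Vim at 1535.64 to 2055.54, Col1a1 at 175.72 to 315.14 and Acta2 at 116.98 to 173.54 FPKM. The summed level of the 6 mesenchymal markers was 2148.24 to 2352.01 FPKM in siR_Ctrl, 2512.36 to 2603.07 in siR_Ctrl + IFN-γ, 2056.94 to 2230.19 in siR_Nostrill and 2204.35 to 2349.79 in siR_Nostrill + IFN-γ. Most of that sum was Vim. Without IFN-γ the FPKM of Acta2, a smooth muscle actin gene, did not overlap, at 144.52 to 173.54 in siR_Ctrl and 122.91 to 129.20 in siR_Nostrill, while its edgeR log2 fold change was -0.15 (adjusted p = 0.56). In FPKM Acta2 also lay lower in siR_Ctrl + IFN-γ (120.64 to 132.55) than in siR_Ctrl, while its counts overlapped (3251 to 4205 against 3811 to 5022). It overlapped between the siRNAs with IFN-γ, and for IFN-γ in siR_Nostrill cells. Vim did not overlap between the siRNAs with IFN-γ, at 1952.98 to 2055.54 in siR_Ctrl + IFN-γ and 1674.52 to 1839.30 in siR_Nostrill + IFN-γ. It overlapped between them without IFN-γ, and was higher with IFN-γ under both siRNAs. In log2 counts scaled to the library total, 18.0% of 11900 genes did not overlap between the siRNAs without IFN-γ and 21.4% with it. For IFN-γ the shares were 17.8% in siR_Ctrl and 35.4% in siR_Nostrill cells. The summed level of the 4 epithelial markers in the tables stayed between 1.23 and 3.05 in all libraries, and the leukocyte marker Ptprc did not exceed 0.01 FPKM. The part of these levels in the results below was not tested.

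Libraries of 1 group also differed from each other by transcript length. In siR_Ctrl replicate 1, the counts of a gene deviated from the mean of all libraries by 0.30 log2 units for each doubling of its length, and in siR_Ctrl + IFN-γ replicate 2 by -0.21. The siR_Nostrill replicates 1 and 2 were both at -0.16. Log2 fold changes without IFN-γ ran against length over all genes (Spearman's rho = -0.66 across 11877 genes, which are not independent replicates). With IFN-γ the relation had the other sign (rho = 0.26). Each comparison is therefore given as edgeR's quasi-likelihood test found it, and again with the length trend of every library removed, called length-corrected here. The 3 siR_Nostrill tables were also laid out differently from the other 9, and that difference cannot be told apart from the group.

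Wwc1 (gene ID 211652, GRCm38.p6 chromosome 11, 35838399 to 35980527) is the gene for which the set was picked. Its FPKM was 8.09, 9.24 and 7.94 in siR_Ctrl and 4.68, 5.14 and 5.33 in siR_Nostrill. In the IFN-γ state it was 8.36, 9.30 and 8.84 in siR_Ctrl and 4.57, 5.17 and 5.51 in siR_Nostrill. All 6 libraries with the Nostrill siRNAs lay below all 6 with the control siRNA. The means without IFN-γ were 8.42 ± 0.71 (SD, n = 3) in control and 5.05 ± 0.33 in siR_Nostrill cells, and with IFN-γ they were 8.83 ± 0.47 and 5.08 ± 0.48 FPKM. The log2 fold change was -0.72 (SE 0.11) without and -0.87 (SE 0.11) with IFN-γ, or 0.61 and 0.55 times the control level. The length-corrected values were -0.61 and -0.93. Between replicates of a group Wwc1 had an SD of 0.13 in log2 CPM (counts scaled to the library total), against a median of 0.19 over all genes. For Wwc1 the correction raised that SD, to 0.21, while the median over all genes fell to 0.12.

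IFN-γ did not detectably change Wwc1, a comparison that the choice of the gene did not use. The log2 fold change was 0.14 in control cells (95% interval -0.10 to 0.38, adjusted p = 0.64 by edgeR with Benjamini-Hochberg adjustment over all genes) and -0.01 in siR_Nostrill cells (-0.26 to 0.24, adjusted p = 0.96).

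**Figure D1:**
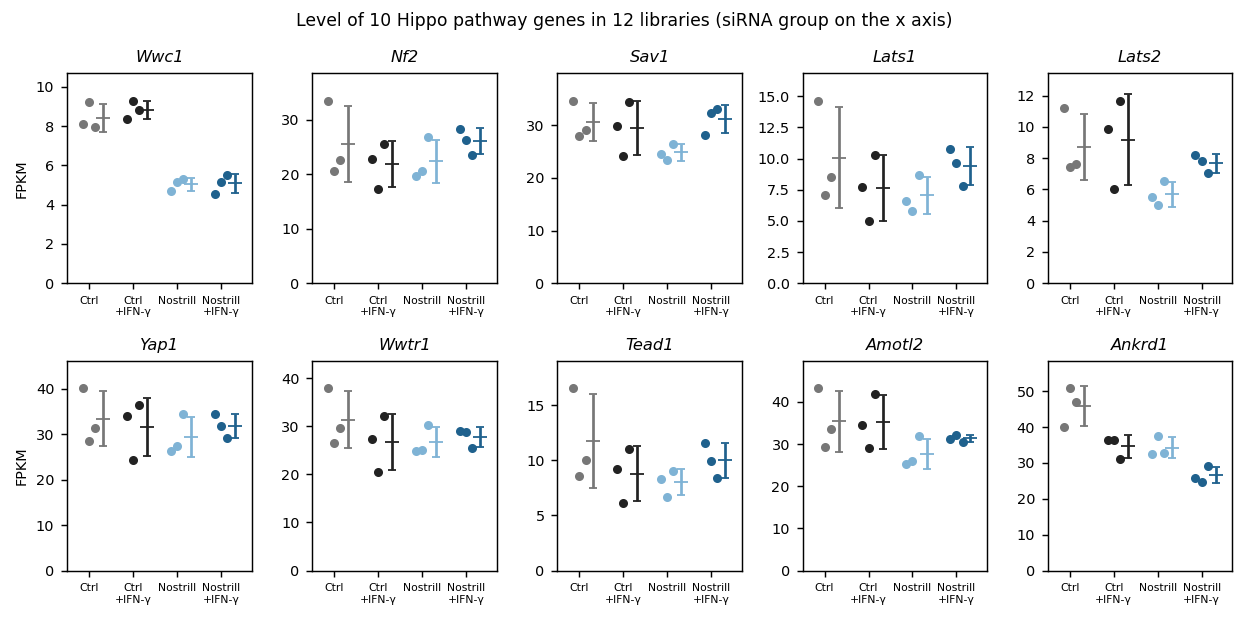
FPKM (y axis, from 0) of the 10 Hippo pathway genes in the 12 libraries, by siRNA group (x axis); points are libraries in replicate order, bars the mean ± SD of 3. Wwc1 lies between 4.57 and 5.51 with the Nostrill siRNAs and between 7.94 and 9.30 with the control, while most other genes overlap between groups and siR_Ctrl replicate 1 is often the highest.

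The siRNAs themselves are shown because a guide strand can pair through its seed, bases 2 to 8, with the 3′UTR of other mRNAs. The guides below are the reverse complements of the sense strands given by the study, 5′ to 3′, with the seed in capitals.
Nostrill-1 guide: aUUAAUGCuucuucccagg
Nostrill-2 guide: aUUUGUGUguuccuggugg
Nostrill-3 guide: aUUAGAACgacuuauaggc
The 3′UTR of Wwc1 in GENCODE vM21 is 778 nt long and holds 2 matches to the seed of Nostrill-1, with the matching letters in capitals in the mRNA sense. These stretches lie on the minus strand of GRCm38, at chr11:35838915-35838943 and chr11:35838838-35838866.
Wwc1 3′UTR position 246: caaaaaaaccaGCATTAAaatgacaagat
Wwc1 3′UTR position 323: gaactaaagcaGCATTAAgtggctgctag
The control siRNA's sequence was not used here. A match of 7 letters is a description and not a site of action.

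Of the 10 members, Wwc1, Sav1, Lats1, Lats2 and Tead1 hold at least 1 such match in a 3′UTR, and Nf2, Yap1, Wwtr1, Amotl2 and Ankrd1 hold none. Among all 11576 tested genes with a 3′UTR in the annotation, 29.2% hold a match to at least 1 of the 3 seeds, and 9.3% one to Nostrill-1. Sav1 and Lats2 each share the Nostrill-1 match with Wwc1.
Sav1 3′UTR position 273: agcataaacagGCATTAAataggaaaccg
Lats2 3′UTR position 152: ggaccttcactGCATTAAaacagtatttt
They are on the minus strand at chr12:69965850-69965878 and chr14:57691119-57691147. Over all genes, length-corrected, the median log2 fold change without IFN-γ was -0.14 for the 109 genes with 2 or more Nostrill-1 matches, -0.08 for the 967 with 1, and 0.02 for the 8191 with no match to any seed. Log2 fold changes were below 0 in 78.0%, 66.1% and 45.5% of these sets without IFN-γ and in 63.3%, 58.1% and 49.5% with it, where the medians were -0.07, -0.05 and 0.00. The shares called lower were 5.5%, 8.17% and 0.72% without IFN-γ and 12.84%, 10.96% and 6.45% with it. In the same order, 0, 4 and 151 genes were called higher without IFN-γ, beside 6, 79 and 59 called lower. In the IFN-γ state 2, 28 and 581 were called higher, beside 14, 106 and 528 called lower. Among all 11576 genes with a 3′UTR, 49.2% were below 0 without IFN-γ and 50.6% with it, and 1.85% and 6.82% were called lower. Genes with matches to Nostrill-2 or Nostrill-3 were not summarized in this way. Wwc1, whose level was used to pick the members, is among the 109 genes and was not taken out. Its own values therefore enter the figures of that set. The part of seed pairing in the level of Wwc1 was not tested.

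Of the other scaffold and the adaptor, Nf2 (gene ID 18016), which encodes merlin, did not separate the groups. Its FPKM was 33.54, 20.57 and 22.56 in siR_Ctrl, 19.64, 20.56 and 26.91 in siR_Nostrill, and, with IFN-γ, 22.74, 17.36 and 25.63 against 28.39, 26.40 and 23.52. The groups overlapped in every comparison. The log2 fold change for the Nostrill siRNAs was -0.09 without IFN-γ (95% interval -0.40 to 0.21) and 0.23 with it (-0.07 to 0.54). The length-corrected values were 0.07 and 0.18, the latter with an interval of 0.06 to 0.30 and an adjusted p of 0.057.

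Sav1 (gene ID 64010), which tethers the MST kinases, stood at 34.69, 27.99 and 29.02 FPKM in siR_Ctrl and at 24.57, 23.45 and 26.49 in siR_Nostrill. Under IFN-γ it stood at 29.89, 24.17 and 34.51 in control cells and at 28.23, 32.32 and 33.09 in siR_Nostrill cells. The siR_Nostrill libraries lay below those of siR_Ctrl, but the log2 fold change of -0.28 (SE 0.11) did not pass the edgeR test over all genes (unadjusted p = 0.026, adjusted p = 0.32). With IFN-γ it was 0.01 (95% interval -0.23 to 0.25).

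The LATS kinases phosphorylate YAP and TAZ, and Lats2 is itself a target gene of YAP and TAZ. Lats2 (gene ID 50523) was at 11.18, 7.41 and 7.63 FPKM in siR_Ctrl and at 5.52, 4.98 and 6.57 in siR_Nostrill, with no overlap. Under IFN-γ it was at 9.85, 6.01 and 11.68 in siR_Ctrl and at 8.22, 7.81 and 7.02 in siR_Nostrill, so that the groups overlapped. Without IFN-γ its log2 fold change of -0.67 (SE 0.21) was closest to that of Wwc1, and did not pass in edgeR (unadjusted p = 0.0088, adjusted p = 0.25). Length-corrected, Lats2 was called lower (log2 fold change -0.48, SE 0.10, adjusted p = 0.025). It kept that call in 8 of 12 fits that left out 1 library each and lost it without siR_Ctrl replicate 1 or 2 or siR_Nostrill replicate 1 or 2, where the adjusted p rose to at most 0.12. With IFN-γ the log2 fold change was -0.24 (95% interval -0.70 to 0.22), or -0.28 length-corrected (adjusted p = 0.094).

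Lats1 (gene ID 16798), the paralog, ranged from 7.07 to 14.65 FPKM in siR_Ctrl and from 5.82 to 8.70 in siR_Nostrill. With IFN-γ the ranges were 4.99 to 10.25 in siR_Ctrl and 7.80 to 10.80 in siR_Nostrill. All groups overlapped. Its log2 fold changes were -0.48 (95% interval -1.04 to 0.08) without and 0.25 (-0.31 to 0.81) with IFN-γ. Lats1 is one of the long transcripts (effective length 6940 nt), and its SD between replicates dropped from 0.36 to 0.11 log2 units when the length trend was removed. The fold changes then became -0.13 and 0.19.

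For the coactivators the groups overlapped in every comparison. For Yap1 (gene ID 22601) the FPKM was 40.23, 28.62 and 31.47 in siR_Ctrl, 26.36, 27.49 and 34.57 in siR_Nostrill, and, with IFN-γ, 33.94, 24.33 and 36.49 against 34.50, 31.84 and 29.15. Its log2 fold change for the Nostrill siRNAs was -0.14 (95% interval -0.43 to 0.14) without and -0.03 (-0.31 to 0.25) with IFN-γ. Length correction narrowed the intervals to -0.16 to 0.12 and -0.21 to 0.06. Wwtr1 (gene ID 97064) had log2 fold changes of -0.20 (-0.49 to 0.10) and 0.00 (-0.29 to 0.30), and length-corrected values of -0.02 (-0.13 to 0.09) and -0.04 (-0.15 to 0.07). Its FPKM ran from 26.46 to 37.99 in siR_Ctrl, from 24.95 to 30.36 in siR_Nostrill, and with IFN-γ from 20.56 to 32.24 and from 25.46 to 29.06.

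Tead1 (gene ID 21676), the longest transcript of the set at 9632 nt, was at 16.55, 8.57 and 10.01 FPKM in siR_Ctrl and at 8.30, 6.70 and 9.04 in siR_Nostrill. siR_Ctrl replicate 1 was the highest, and the groups overlapped in FPKM though not in log2 CPM. The log2 fold change of -0.52 (unadjusted p = 0.045, adjusted p = 0.36 in edgeR) shrank to -0.21 without that library and to -0.07 (95% interval -0.24 to 0.09) on length correction. In the IFN-γ state Tead1 was at 9.17, 6.10 and 11.05 FPKM in siR_Ctrl and 11.57, 9.96 and 8.41 in siR_Nostrill, a log2 fold change of 0.13 (-0.37 to 0.63).

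Amotl2 and Ankrd1 are the members downstream of YAP, TAZ and TEAD. Amotl2 (gene ID 56332), an angiomotin that binds YAP and is also one of its targets, was at 43.31, 29.36 and 33.48 FPKM in siR_Ctrl and at 25.27, 25.98 and 31.82 in siR_Nostrill. With IFN-γ it was at 34.50, 29.14 and 41.88 in siR_Ctrl and at 31.30, 32.13 and 30.60 in siR_Nostrill. In FPKM the groups overlapped in both states, and in log2 CPM they did not with IFN-γ. The log2 fold changes by edgeR were -0.33 (SE 0.13, adjusted p = 0.32) and -0.22 (SE 0.13, adjusted p = 0.45) and passed in neither state. Length-corrected, Amotl2 was called lower with IFN-γ (-0.26, SE 0.06, adjusted p = 0.015) and missed without it (-0.19, adjusted p = 0.10). The call with IFN-γ held in 10 of 12 fits that left out a library and was lost without siR_Nostrill + IFN-γ replicate 1 or 2.

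Ankrd1 (gene ID 107765, chromosome 19, 36111965 to 36119844), a cardiac ankyrin repeat protein and a common readout of YAP activity, had its lowest levels with the Nostrill siRNAs and IFN-γ together. Its FPKM was 39.87, 50.89 and 47.03 in siR_Ctrl and 32.55, 37.55 and 32.72 in siR_Nostrill. With IFN-γ added it was 36.31, 36.47 and 31.02 in control cells and 25.75, 24.75 and 29.04 in siR_Nostrill cells. The means of 45.93 ± 5.59, 34.27 ± 2.84, 34.60 ± 3.10 and 26.51 ± 2.24 (SD, n = 3, for siR_Ctrl, siR_Nostrill and the same with IFN-γ) put the group with neither treatment highest and the group with both lowest. In FPKM siR_Nostrill did not overlap siR_Ctrl, while in log2 CPM it did, with siR_Ctrl replicate 1 the lowest of its group.

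By edgeR the log2 fold change of Ankrd1 for the Nostrill siRNAs was -0.39 (SE 0.15, adjusted p = 0.30) without IFN-γ and -0.45 (SE 0.15, adjusted p = 0.18) with it. The unadjusted p-values in edgeR were 0.020 and 0.011. After length correction Ankrd1 passed in both states, at -0.53 (SE 0.07, adjusted p = 0.0016) and -0.39 (SE 0.07, adjusted p = 0.0059). Both calls held in all 12 fits that left out 1 library. Ankrd1 is the shortest transcript of the set (1528 nt), and besides Sav1 (-0.31) it is the only member whose value without IFN-γ moved further from 0 on correction.

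**Figure D2:**
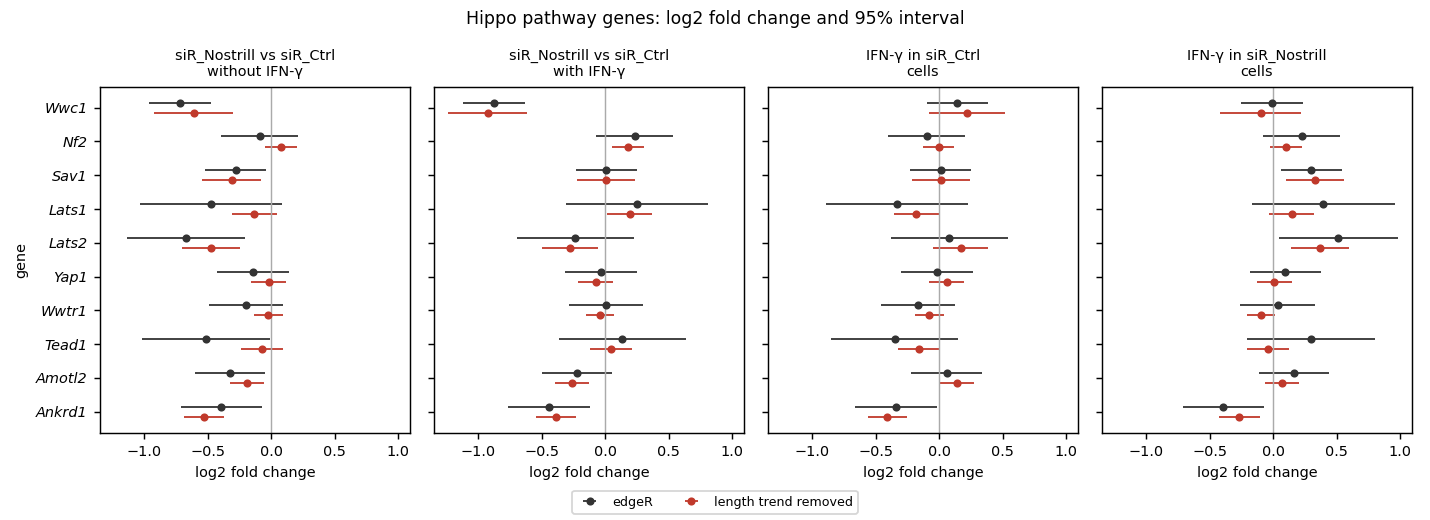
Log2 fold change (x axis) of each member (y axis) in 4 comparisons, with 95% intervals, by edgeR on 3 libraries per group (black) and length-corrected (red). Wwc1 lies at -0.72 and -0.87 in the first 2 panels; Ankrd1 lies below 0 in all 4, and the intervals of Lats1 and Tead1 shrink on correction.

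The promoters of the members were searched for GGAATG or its reverse complement CATTCC, the core letters that TEAD factors bind, in the 250 bases before a RefSeq transcript start of each gene (GRCm38.p6). This need not be the outermost start: the windows of Sav1 and Amotl2 lie inside the annotated gene, and so do some of the other windows, in whole or in part. Both strands were read and no other motif was searched. A promoter was in the table for 9 members, all but Tead1, and 5 of the 9 held the letters, as did 12.6% of 9521 tested genes with a promoter there. The sites are shown with 12 bases on each side, in the direction of the gene and with the motif in capitals, for Ankrd1 and Amotl2, members of the target signature. Lats2 belongs to it as well.
Ankrd1, chr19:36120037-36120066, minus strand, 210 bases before the start: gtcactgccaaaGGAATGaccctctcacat
Ankrd1, chr19:36119950-36119979, minus strand, 123 bases before the start: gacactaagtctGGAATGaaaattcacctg
Amotl2, chr9:102717727-102717756, plus strand, 65 bases before the start: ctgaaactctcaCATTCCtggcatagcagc
Ankrd1 was the only member with 2 copies. Sav1, Yap1 and Wwtr1 held 1 each, at 106, 141 and 136 bases before a start, and Wwc1, Nf2, Lats1 and Lats2 held none in these windows. Among the 19 other target genes a promoter was in the table for 12, and 4 of these (33.3%) held the letters: Ccn1, Axl, Crim1 and Ptpn14. F3, Tgfb2 and Gadd45a were among the 8 that held none. The site of Ccn1 is shown as that of a classical target.
Ccn1, chr3:145650071-145650100, minus strand, 103 bases before the start: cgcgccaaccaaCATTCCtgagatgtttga
These matches are letters in a window and were not tested for binding.

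As a set, the 9 members other than Wwc1 gave no call at an adjusted p under 0.05 in either siR_Nostrill comparison by edgeR, where the background was 0.218% of 11900 genes without and 0.429% with IFN-γ. DESeq2 also called 0 of 9 in both. At an unadjusted p under 0.05 edgeR had 5 of 9 without IFN-γ (Sav1, Lats2, Tead1, Amotl2 and Ankrd1) and 1 of 9 with it (Ankrd1), beside 1643 and 1730 of 11900 genes. All 9 had a log2 fold change below 0 without IFN-γ, as did 5875 of 11900 genes, with a median of -0.33 beside 0.01 over all genes. With IFN-γ, 4 of 9 were below 0 and the median was 0.00. Length-corrected, 2 of 9 were called without IFN-γ (Lats2 and Ankrd1, background 3.43%) and 2 of 9 with it (Amotl2 and Ankrd1, background 12.9%), all lower, and the medians were -0.13 and -0.04. Groups that did not overlap in log2 CPM were seen for 3 of 9 members without IFN-γ (Sav1, Lats2 and Tead1, background 18.0%) and for 2 of 9 with it (Amotl2 and Ankrd1, background 21.4%).

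Without siR_Ctrl replicate 1, the member with the lowest log2 fold change without IFN-γ among the 9 was Ankrd1 (-0.51) and not Lats2 (-0.48), and Nf2 was at 0.06. Lats1, Yap1 and Wwtr1 then stood at -0.15, -0.03 and -0.07. The comparisons without and with IFN-γ share no library. The interaction of siRNA and IFN-γ, which tests whether they differ, was called for 0 of 9 members (background 0% of 11900 genes, with 1277 at an unadjusted p under 0.05). No member had an unadjusted p under 0.05 in that edgeR test. After length correction the count was again 0 of 9 (background 0%), with 1 member at an unadjusted p under 0.05, and DESeq2 called 0 of 9.

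**Figure D3:**
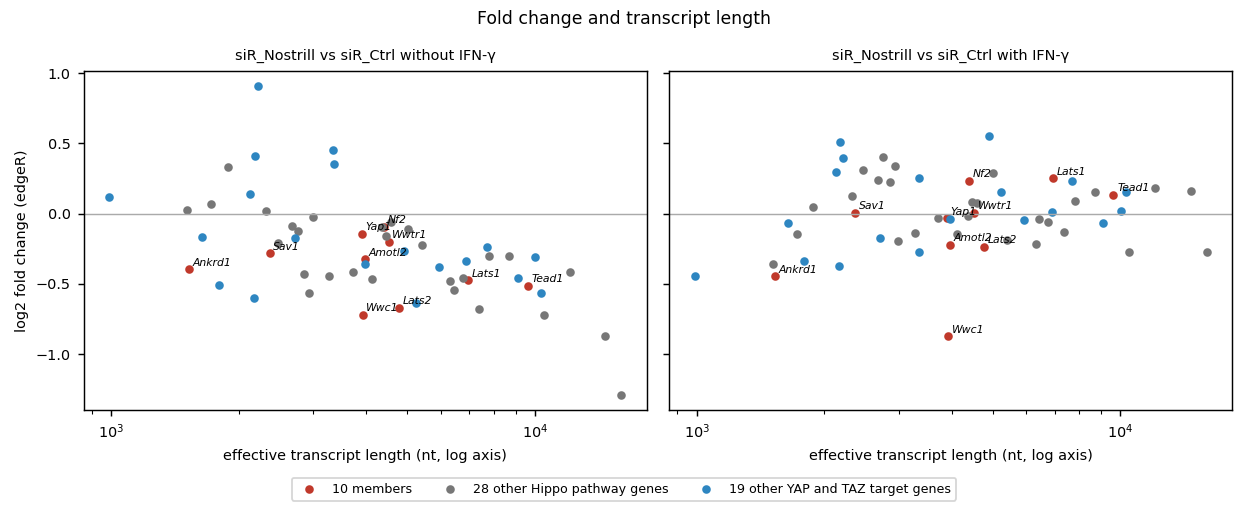
Log2 fold change by edgeR (y axis) against effective transcript length in nt (log x axis) for the 10 members and 2 further gene lists, without (left) and with IFN-γ (right). On the left longer genes lie lower, down to Fat4 at -1.29, and on the right Wwc1 is the lowest point at -0.87.

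The rest of the pathway was read from 28 other genes: the MST kinases and the kinases upstream of and parallel to them, LATS adaptors and inhibitors, large cadherins of the FAT family, angiomotins, STRIPAK subunits, other TEAD factors and TEAD cofactors. All 28 were tested, and edgeR called 0 of 28 in every comparison. At an unadjusted p under 0.05 there were 7 without IFN-γ and 3 with it, where all 11900 genes gave 1643 and 1730. For IFN-γ in siR_Ctrl cells, in siR_Nostrill cells and the interaction there were 2, 1 and 1, beside 1742, 2606 and 1277 of all genes. DESeq2 called 1 without IFN-γ, among 265 genes in all, and 0 in the other comparisons. The gene called by DESeq2 was Ajuba (adjusted p = 0.025). Of the 28, 24 had a log2 fold change below 0 without IFN-γ (median -0.30) and 14 with it (median 0.01). Without IFN-γ 5875 of all 11900 genes were below 0, and 5864 length-corrected. Length-corrected, 18 of the 28 were below 0 without IFN-γ, the median was -0.11, and 3 of 28 were called (Fat4, Ajuba and Tead2, background 3.43%).

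Fat4, Fat1 and Dlg5 had the largest differences without IFN-γ among those of the 28 other pathway genes with an average log2 CPM above 1. Fat4, an atypical cadherin, had a log2 fold change of -1.29 (SE 0.46, adjusted p = 0.30), its relative Fat1 -0.87 (adjusted p = 0.38) and the scaffold gene Dlg5 -0.68 (adjusted p = 0.36). Removing the length trend brought these to -0.66 (adjusted p = 0.0497), -0.25 and -0.32. Fat4 kept its call in 3 of 12 fits that left out a library and lost it without any 1 of the 6 compared. Ajuba, which encodes a LATS inhibitor, was at 37.49, 28.46 and 31.13 FPKM in siR_Ctrl and 21.38, 21.08 and 27.62 in siR_Nostrill, and was called lower on length correction (-0.38, adjusted p = 0.013). Ajuba held that call in 9 of 12 fits and lost it without siR_Ctrl replicate 1 or siR_Nostrill replicate 1 or 2. Tead2 was called higher there (0.25, adjusted p = 0.045), held in 3 of 12 fits and lost without any 1 of the 6 libraries compared but siR_Ctrl replicate 2.

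With IFN-γ the largest differences by edgeR among these pathway genes were 0.40 in Tead4 (adjusted p = 0.54), -0.36 in Rassf1 (adjusted p = 0.28) and 0.34 in Mob1b (adjusted p = 0.75). Length correction gave 4 of 28 calls with IFN-γ (background 12.9%). Rassf1, whose product binds the MST kinases, was lower (-0.30, adjusted p = 0.0082), as were Wwc2, the paralog of Wwc1 (-0.27, adjusted p = 0.0089), and the parallel kinase gene Map4k4 (-0.25, adjusted p = 0.0098). Stk4, which encodes an MST kinase, was higher (0.24, adjusted p = 0.022). Rassf1 and Wwc2 held the call in all 12 fits. Map4k4 lost it without siR_Nostrill + IFN-γ replicate 2, and Stk4 without that library, siR_Nostrill + IFN-γ replicate 1 or the second replicate of siR_Ctrl + IFN-γ. Wwc2 was at 19.02, 13.56 and 22.62 FPKM in siR_Ctrl + IFN-γ and at 17.65, 16.40 and 15.29 where the Nostrill siRNAs were added, so the groups overlapped in FPKM.

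As genes downstream of the pathway, 19 other genes of a published signature of YAP and TAZ targets were read. Without IFN-γ edgeR called 2 of 19, both lower with the Nostrill siRNAs (background 0.218%), and the 2 are the classical targets Ccn1 and Ccn2. The count was 1 without a filter on low counts, with a replicate block and in the 3 limma fits, and 0 when only the groups compared entered the fit. Length-corrected it was 3 of 19 (Ccn1, Ccn2 and Axl, all lower, background 3.43%). With IFN-γ edgeR called 0 of 19 (background 0.429%), with 5 at an unadjusted p under 0.05 and 3 called by DESeq2, which called 596 genes in all. Length-corrected, 2 of 19 were called with IFN-γ (Ccn1 and Ccn2), where the background was 12.9%. The median log2 fold change of the 19 was -0.27 without and 0.01 with IFN-γ, or -0.07 and -0.05 length-corrected.

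Ccn1 (CYR61, gene ID 16007), a secreted matricellular protein, was at 151.79, 139.74 and 136.48 FPKM in siR_Ctrl and at 96.82, 92.05 and 106.05 in siR_Nostrill. The IFN-γ libraries had 155.23, 140.78 and 158.51 in siR_Ctrl and 124.37, 121.79 and 128.77 in siR_Nostrill. The siR_Nostrill libraries lay below their controls in both states. By edgeR Ccn1 fell by 0.51 log2 units without IFN-γ (SE 0.07, adjusted p = 0.019), and with IFN-γ the log2 fold change was -0.33 (SE 0.07, adjusted p = 0.062). Length-corrected, Ccn1 passed in both (-0.61, adjusted p = 0.0016, and -0.30, adjusted p = 0.030).

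Ccn2 (CTGF, gene ID 14219), its close relative, was at 9.76, 10.15 and 9.38 FPKM in siR_Ctrl and at 5.92, 5.95 and 7.13 in siR_Nostrill. Under IFN-γ it stood at 15.35, 13.44 and 16.95 in siR_Ctrl and 13.76, 11.39 and 11.68 in siR_Nostrill. In FPKM the groups overlapped only with IFN-γ. By edgeR Ccn2 fell by 0.60 log2 units without IFN-γ (SE 0.10, adjusted p = 0.045), and with IFN-γ the log2 fold change was -0.37 (SE 0.10, adjusted p = 0.11). The length-corrected values were -0.65 (adjusted p = 0.0042) and -0.36 (adjusted p = 0.027).

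The edgeR calls without IFN-γ did not survive every left-out library. Ccn1 kept its call in 5 of 12 fits and Ccn2 in 1 of 12, with adjusted p-values up to 0.15 and 0.28, while the log2 fold changes stayed between -0.54 and -0.47 and between -0.66 and -0.53. Both lost the call without any 1 of the 6 libraries compared. After length correction both kept it in all 12 fits. Their length-corrected calls with IFN-γ held in 7 of 12 fits for Ccn1 and 8 of 12 for Ccn2. Both were lost without control replicate 1 or 3 or siR_Nostrill replicate 2 or 3 of that state, and Ccn1 also without siR_Nostrill + IFN-γ replicate 1.

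Of the 19 genes of the signature, 13 had a log2 fold change below 0 without IFN-γ, beside 5875 of 11900 genes, and 9 with it. Crim1 (-0.64, adjusted p = 0.37) and Ptpn14 (-0.56, adjusted p = 0.39) had large differences without IFN-γ that overlapped between groups and shrank to -0.39 and -0.09 on length correction. With IFN-γ, Tgfb2 stood at 0.55 (adjusted p = 0.25) and Gadd45a at -0.44 (adjusted p = 0.12). Axl was called lower without IFN-γ on length correction (-0.23, adjusted p = 0.049), held in 2 of 12 fits and lost without any 1 of the 6 libraries compared but siR_Nostrill replicate 3.

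**Figure D4:**
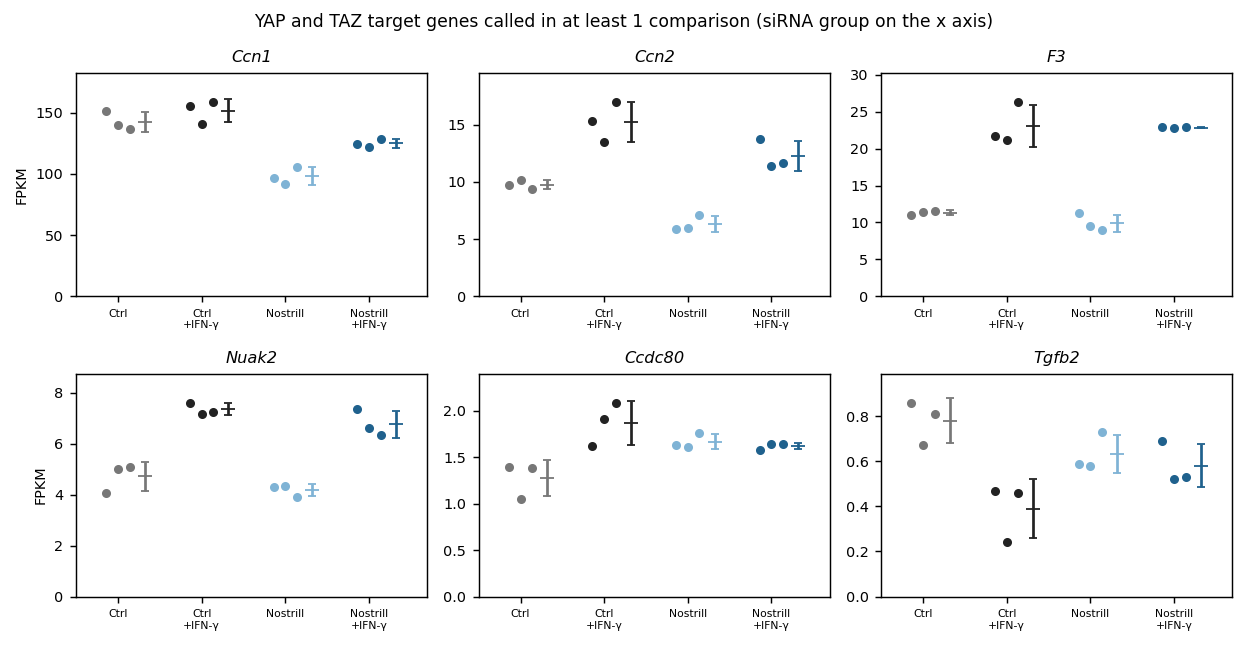
FPKM (y axis, from 0) of the 6 genes of the YAP and TAZ target signature that edgeR called in at least 1 comparison, by siRNA group (x axis); points are libraries in replicate order, bars the mean ± SD of 3. Ccn1 and Ccn2 are lower in siR_Nostrill than in siR_Ctrl, and Ccn2, F3 and Nuak2 are higher with IFN-γ under both siRNAs.

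IFN-γ itself gave no call among the members by edgeR: 0 of 10 in siR_Ctrl cells (background 5.45%, 1 member at an unadjusted p under 0.05) and 0 of 10 in siR_Nostrill cells (background 6.78%, 3 at an unadjusted p under 0.05). DESeq2 called 0 of 10 in both. Groups without overlap in log2 CPM were seen for 0 of 10 members in siR_Ctrl cells (background 17.8%) and for 4 of 10 in siR_Nostrill cells (background 35.4%): Sav1, Lats2 and Amotl2 higher and Ankrd1 lower. Length-corrected, 1 of 10 was called in siR_Ctrl cells (background 11.1%) and 3 of 10 in siR_Nostrill cells (background 18.9%).

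Ankrd1 was the member called under both siRNAs after length correction. Its log2 fold change with IFN-γ was -0.41 (SE 0.07, adjusted p = 0.0015) in siR_Ctrl cells, held in all 12 fits, and -0.27 (SE 0.07, adjusted p = 0.022) in siR_Nostrill cells, held in 9 of 12 and lost without siR_Nostrill replicate 2 or siR_Nostrill + IFN-γ replicate 1 or 2. Before correction the values were -0.34 (adjusted p = 0.30) and -0.39 (adjusted p = 0.15). In siR_Nostrill cells Sav1 (0.33, adjusted p = 0.047) and Lats2 (0.37, adjusted p = 0.026) were called higher on length correction, and held in 5 and 7 of 12 fits. Sav1 lost its call without any 1 siR_Nostrill library, siR_Nostrill + IFN-γ replicate 2 or 3, siR_Ctrl replicate 3 or siR_Ctrl + IFN-γ replicate 1. Lats2 lost it without siR_Nostrill replicate 1 or 2 or any 1 library of siR_Nostrill + IFN-γ. Their length-corrected log2 fold changes in siR_Ctrl cells were 0.01 and 0.17, and the interaction did not pass for either (adjusted p = 0.27 and 0.46).

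Genes of the target signature were called in both directions with IFN-γ. In siR_Ctrl cells edgeR called 5 of 19 (background 5.45%), with Ccn2 (0.70, adjusted p = 0.00078), the tissue factor gene F3 (1.09, adjusted p = 6.6e-05), the kinase gene Nuak2 (0.68, adjusted p = 0.0011) and Ccdc80 (0.59, adjusted p = 0.021) higher and Tgfb2 (-0.95, adjusted p = 0.018) lower. Ccdc80 lost its call without replicate 2 of either group or the third library of siR_Ctrl + IFN-γ, and Tgfb2 without siR_Ctrl replicate 1 or 3. In siR_Nostrill cells it called 4 of 19 (background 6.78%), all higher: Ccn1 (0.33, adjusted p = 0.013), Ccn2 (0.94, adjusted p = 8.7e-05), F3 (1.19, adjusted p = 3.4e-05) and Nuak2 (0.68, adjusted p = 0.0012). Ccn1 lost that call without siR_Nostrill replicate 2 or siR_Nostrill + IFN-γ replicate 3. F3 went from 10.96, 11.37 and 11.58 FPKM to 21.66, 21.20 and 26.27 in control cells and from 11.22, 9.46 and 8.93 to 22.89, 22.78 and 22.87 in siR_Nostrill cells. No gene of the signature was called in the interaction by edgeR (0 of 19, 3 at an unadjusted p under 0.05, and 0 by DESeq2). Of the other pathway genes, length-corrected edgeR called 2 of 28 in each state, where the background was 11.1% in siR_Ctrl and 18.9% in siR_Nostrill cells. These were the STRIPAK gene Strn3 (-0.31, adjusted p = 0.022) and Wwc2 (-0.26, adjusted p = 0.0082) lower with IFN-γ in siR_Ctrl cells, Strn3 losing the call without replicate 1 of either group or the second of siR_Ctrl + IFN-γ. In siR_Nostrill cells they were Wwc2 (-0.34, adjusted p = 0.00097) and Map4k4 (-0.23, adjusted p = 0.0095), both lower. The target Dock5 was also called lower there (-0.17, adjusted p = 0.047), and held in 1 of 12 fits.

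Levels between genes were compared per length, in FPKM. In siR_Ctrl the order of mean levels was Ankrd1 at 45.93, Amotl2 at 35.38, Yap1 at 33.44, Wwtr1 at 31.36, Sav1 at 30.57 and Nf2 at 25.56, and then Tead1 at 11.71, Lats1 at 10.09, Lats2 at 8.74 and Wwc1 at 8.42. The ranges of neighbours in this order overlapped, except between Nf2 and Tead1. The same 6 genes were the most abundant in each of the 4 groups. Ankrd1 stood first in siR_Ctrl and siR_Nostrill but below Yap1, Amotl2, Sav1 and Wwtr1 in siR_Nostrill + IFN-γ, where its mean was 26.51. Outside siR_Ctrl + IFN-γ Wwc1 came last, and with the Nostrill siRNAs and IFN-γ its range did not reach that of Lats2 (7.68 ± 0.61).

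Across the 12 libraries, which share 4 groups and the length trend, Ankrd1 (Pearson's r = 0.67) and Amotl2 (r = 0.60) followed the log2 CPM of Wwc1 most closely among the members, then Lats2 (0.47) and Sav1 (0.37). Yap1, Wwtr1, Tead1 and Lats1 lay between -0.08 and 0.13, and Nf2 was at -0.34. Lats1, Tead1, Wwtr1 and Yap1 instead followed each other, with r from 0.84 to 0.97, which dropped to between -0.43 and 0.30 on length correction. Nf2 (0.75 to 0.89) and Lats2 (0.73 to 0.85) also followed these genes before correction. Lats2 had an r of 0.92 with Amotl2 and 0.85 with Sav1, which stayed at 0.82 and 0.84 on length correction. The length-corrected r of Wwc1 with Ankrd1 and Amotl2 was 0.68 and 0.74, that with Nf2 -0.80. Among 10696 genes with an average log2 CPM above 1, those most like Wwc1 were Uap1 (r = 0.97), Sfswap (0.96), Armcx1 (0.94), Gucd1 (0.94) and Enoph1 (0.93), while Ankrd1 ranked 329th and Amotl2 541st. Length-corrected, the r of these 5 genes was 0.92, 0.94, 0.80, 0.88 and 0.60 in the same order, so that Enoph1 lay below Ankrd1 and Amotl2. Uap1 was at 40.04 ± 1.38 and 42.32 ± 2.33 FPKM (SD, n = 3) in control cells without and with IFN-γ and at 31.91 ± 2.39 and 29.24 ± 1.78 in siR_Nostrill cells. Of these 5 genes, Uap1 holds 1 match to the Nostrill-1 seed in the 3′UTR, Gucd1 1 to Nostrill-2 and Armcx1 1 to Nostrill-3. Sfswap and Enoph1 hold none, and 29.2% of all tested genes with a 3′UTR hold a match to at least 1 seed. The siRNA difference in Wwc1, on which the set was selected, is part of every correlation with Wwc1, so these values describe the libraries and carry no test.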

How the data were processed

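The 12 tables hold, per gene, the estimated counts, FPKM and TPM deposited by the authors. The submitters' processing notes name HISAT and HISAT2 and the builds mm10 and GRCm38.p6, and no source used here names the counting tool. Estimated counts (90.6% to 91.6% whole) were rounded and tested with edgeR 4.0.16 in R 4.3.3 (quasi-likelihood, TMM, filterByExpr, 12 libraries in 1 fit, 3 per group), with Benjamini-Hochberg adjustment over 11900 genes and a threshold of 0.05. The authors' FPKM gave the levels and the limma fits, and TPM was read only for its sum per library. For the length trend, a lowess curve (span 0.3) of each library's log2 deviation on effective length entered edgeR as an offset. It would also remove real change that follows length. Alternatives were DESeq2 1.42.0, limma 3.58.1 on log2(FPKM + 1) or log2(FPKM + 0.1), other filters and normalization, a replicate block and each library left out. Replicates of a group differed by more than sampling noise in every pair (chi-square per degree of freedom 6.72 to 101.34).

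The members and lists were chosen with earlier results of these data known. Named genes were the 10 members, Ccn1, Ccn2, every listed gene with an adjusted p under 0.05 in any comparison, the 3 largest fold changes of each list in each siR_Nostrill comparison (average log2 CPM above 1), the 5 genes most correlated with Wwc1, and the markers. Cdh1, Epcam, Cldn3, Cd3e and Adgre1 were on the marker lists but were not found under these symbols. The epithelial list was therefore read from 4 of its 7 genes. A further marker is not reported here. Promoters are from RefSeq (GRCm38.p6), and 3′UTRs from GENCODE vM21 were matched by symbol. Genes called only with the length trend removed were added to the named ones after their values were seen, and so was the fit without each library with that trend removed.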

Additional observations from a re-analysis of the deposited data

How the results depend on the processing

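Among the members, counts of calls by edgeR (0 in each comparison) moved under the length correction, to 2 and 2 for the Nostrill siRNAs without and with IFN-γ and to 1 and 3 for IFN-γ in siR_Ctrl and siR_Nostrill cells, and to 2 for the last comparison (Lats2 and Ankrd1) in a fit of only the groups compared. With the correction and 1 library left out, chosen after seeing the data, they ran from 1 to 2, 1 to 3, 1 to 2 and 0 to 3. For the 28 other pathway genes (0 in each), DESeq2 gave 1 without IFN-γ, and the correction gave 3, 4, 2 and 2 in the same order, or 0 to 4, 2 to 5 and 1 to 2 in the first 3 with a library left out. For the 19 targets the count without IFN-γ (2) was 0 to 2 with a library left out, 1 without a filter, with a replicate block and in each of the 3 limma fits, 0 with only the groups compared and 3 on length correction. With IFN-γ (0) it was 3 by DESeq2, 1 at a mean of at least 5 CPM and 2 on length correction (0 to 3 with a library left out). For IFN-γ in siR_Ctrl cells (5) it was 3 with only the groups compared and 3 by limma with a pseudocount of 1 or 0.1.

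Several log2 fold changes changed sign, each from a value that no edgeR test passed. On length correction these were Nf2 at 0.073 without IFN-γ, Wwtr1 at -0.044 with IFN-γ, Yap1 at 0.059 for IFN-γ in siR_Ctrl cells, Wwtr1 at -0.099 and Tead1 at -0.041 in siR_Nostrill cells, and, in the interaction, Yap1 at -0.053, Wwtr1 at -0.021, Amotl2 at -0.069 and Ankrd1 at 0.14. By limma they were Yap1 at 0.028 (0.029 with a pseudocount of 0.1) with IFN-γ, Sav1 at -0.057 (-0.059) and Amotl2 at -0.0053 for IFN-γ in siR_Ctrl cells, Wwc1 at 0.0064 (0.0072) in siR_Nostrill cells, and Ankrd1 at 0.037 (0.035) in the interaction. With a library left out, values crossing 0 ran from -0.20 to 0.055 for Nf2 without IFN-γ. With IFN-γ they ran from -0.082 to 0.10 for Sav1, -0.15 to 0.039 for Yap1, -0.12 to 0.12 for Wwtr1 and -0.042 to 0.30 for Tead1. For IFN-γ in siR_Ctrl cells they ran from -0.18 to 0.047 for Nf2, -0.086 to 0.10 for Sav1, -0.14 to 0.29 for Lats2, -0.088 to 0.11 for Yap1 and -0.050 to 0.20 for Amotl2, and in siR_Nostrill cells from -0.083 to 0.058 for Wwc1 and -0.0028 to 0.10 for Wwtr1. In the interaction they ran from -0.014 to 0.20 for Yap1, -0.037 to 0.21 for Amotl2 and -0.17 to 0.067 for Ankrd1. The causes were not tested.

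Over all genes, the 26 and 51 calls for the Nostrill siRNAs without and with IFN-γ became 265 and 596 by DESeq2, 408 and 1537 on length correction, 18 and 30 without a filter, and 0 and 0 with only the groups compared. The 649 and 807 for IFN-γ became 838 and 1330 by DESeq2, 1324 and 2255 on length correction, and 341 and 1997 with only the groups compared. Same-numbered libraries correlated from -0.49 to 0.73 in their deviations, which also carry the length trend. Whether the numbers pair the libraries was therefore not settled, and a replicate block gave 18, 32, 644 and 943 calls.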
